A study of Papio anubis and Macaca fascicularis and Castor canadensis with 48 samples.

Results

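Bulk RNA sequencing of the kidney was set against that of the liver in the long-tailed macaque (Macaca fascicularis), in 11 of the 48 libraries of a series whose title names longevity across mammals as its subject. The 11 libraries were chosen by their labels alone, as 5 kidneys (replicates 1, 2, 3, 5 and 6) and 6 livers (replicates 1 to 6). All animals of both groups were young adult males labelled wild type, with no treatment, and their organs were collected at a primate research center and frozen. The 6 macaque cerebellum libraries and the 12 kidney and liver libraries of baboon (Papio anubis), from the same collection and likewise from wild-type young adult males, served as further points of reference.

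The kidney filters blood in its glomeruli and then recovers water, salts, glucose and amino acids along a chain of tubule segments, each built around its own transporters and channels. The liver consists mostly of hepatocytes, which secrete most plasma proteins and carry out bile acid synthesis, urea formation and the breakdown of drugs and amino acids. Both organs make glucose and are rich in mitochondria. In a piece of whole organ, a lower level of a transcript can mean fewer cells of a type or less RNA per cell, and these cannot be told apart here.

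The genes are known here by mouse Ensembl IDs alone. None of the 16816 IDs could be paired with a gene name from the files or the reference used here, so no ID below is given a name or a role, and neither organ could be checked against its known marker genes. Genes are described in groups set by their levels in other organs, another species or the number of libraries in which they were counted. For the comparisons themselves, the IDs at the ends of the range are given with their values in every library.

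The 5 kidney libraries held between 17431058 and 21027879 counts and the 6 livers between 21915567 and 26801829. Levels are given as CPM, the usual scaling of a count to the total count of its library. The TMM factor, which corrects for a few genes that take much of a library, averaged 1.29 in kidney and 0.545 in liver, so a fitted fold change differs from the ratio of the CPM values beside it. Libraries of an organ were alike: Spearman correlations across genes were 0.981 to 0.989 among the kidneys and 0.965 to 0.983 among the livers, against 0.834 to 0.851 between a kidney and a liver. No 2 libraries of the 11 had identical counts.

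Genes restricted to one organ in baboon gave a check of the macaque labels that used no macaque value. A gene counted as kidney-restricted when it reached at least 20 CPM in every baboon kidney with a median of at most 0.5 CPM in the baboon livers, and as liver-restricted when the organs were exchanged. The 149 kidney-restricted genes summed to 29246, 25768, 34840, 32035 and 32048 CPM in macaque kidneys 1, 2, 3, 5 and 6, against 36.1, 42.0, 45.5, 39.7, 76.4 and 67.3 CPM in macaque livers 1 to 6. Every kidney lay far above every liver. The 45 liver-restricted genes summed to 50.04, 39.9, 44.3, 31.7 and 40.5 CPM in the same kidneys, against 15185, 18357, 16538, 17591, 16756 and 18869 CPM in the livers. Here every kidney lay far below every liver. Taking 2 counts as 1 read pair, the exact 95% binomial interval of each of these sums reached at most 10.4% below and 11.3% above the value, for counting error only.

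In the cerebellum the 2 groups of genes behaved differently. The kidney-restricted genes summed to 4653 CPM ± 102 in the 6 macaque cerebella (SD), below every kidney and above every liver. The liver-restricted genes summed to 40.3 CPM ± 7.58 in the cerebella (SD, n = 6), close to the 41.3 CPM ± 6.70 in kidney (SD, n = 5). Some genes that set baboon kidney apart from baboon liver were thus also counted in macaque cerebellum, while the liver-restricted genes were at trace levels in both other organs.

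**Figure D1:**
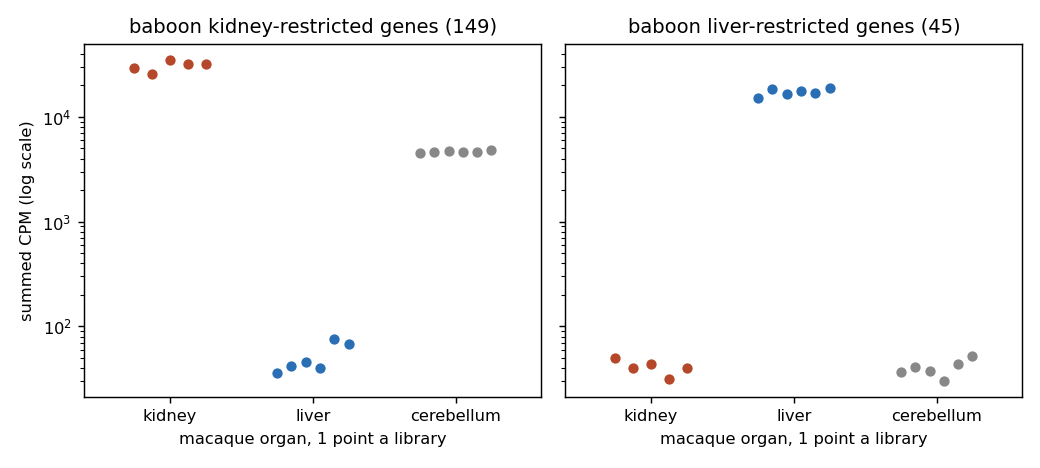
Summed CPM (log scale) of the 149 kidney-restricted genes (left) and the 45 liver-restricted genes (right) of baboon in each macaque kidney, liver and cerebellum library, 1 point a library. The kidneys sit between 25768 and 34840 CPM on the left and between 31.7 and 50.04 CPM on the right, and the livers between 36.1 and 76.4 CPM on the left and between 15185 and 18869 CPM on the right.

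In macaque, 148 of the 149 kidney-restricted genes were higher in kidney than in liver and 1 was not called, with a median log2 fold change of 8.21. Over all tested genes 32.7% were higher in kidney. Single genes of the group had a median of 75.8 CPM in macaque kidney and 0.137 CPM in macaque liver. Of the 149, 16 averaged under 20 CPM in macaque kidney and 11 averaged over 1 CPM in macaque liver, outside the levels by which baboon defined them. Of the 45 liver-restricted genes, 44 were lower in macaque kidney and 1 was not called, with a median log2 fold change of -11.95, and 30.4% of all tested genes were lower in kidney. Their median was 0.179 CPM in macaque kidney and 332 CPM in macaque liver. In macaque 5 of the 45 averaged over 1 CPM in kidney and 2 averaged under 20 CPM in liver. No gene of either group was called in the opposite direction. The largest gene held 8.44% of the kidney group's sum in kidney and 10.6% of the liver group's sum in liver, so neither sum was that of a single gene.

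Kidney and liver differed in most of the transcriptome. Of 13927 genes tested, 8788 (63.1%) differed at an adjusted p under 0.05 (edgeR quasi-likelihood test, Benjamini-Hochberg), 4557 higher and 4231 lower in kidney. The remaining 5139 genes did not pass the test, which does not show that they were equal. Many of the calls were small: 3674 of the 8788 were fitted at under 2-fold. The median log2 fold change of all tested genes was 0.02 and the median size, whatever its sign, was 0.71. The median near 0 and the near-even split depend on the TMM scaling. With upper-quartile factors the median was 0.14, with 5176 genes higher and 3617 lower in kidney.

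The balance between the organs shifted with the size of the difference. At 2-fold or more, 2872 genes (20.6% of those tested) were higher in kidney and 2242 (16.1%) lower. At 4-fold or more the counts were 1752 higher (12.6%) and 1155 lower (8.29%). At 16-fold or more they were 729 higher (5.23%) and 447 lower (3.21%). At 256-fold or more they came close again, with 168 higher (1.21%) and 159 lower (1.14%) in kidney. Genes moderately higher in kidney thus outnumbered those moderately lower, while the most extreme differences were shared almost evenly.

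**Figure D2:**
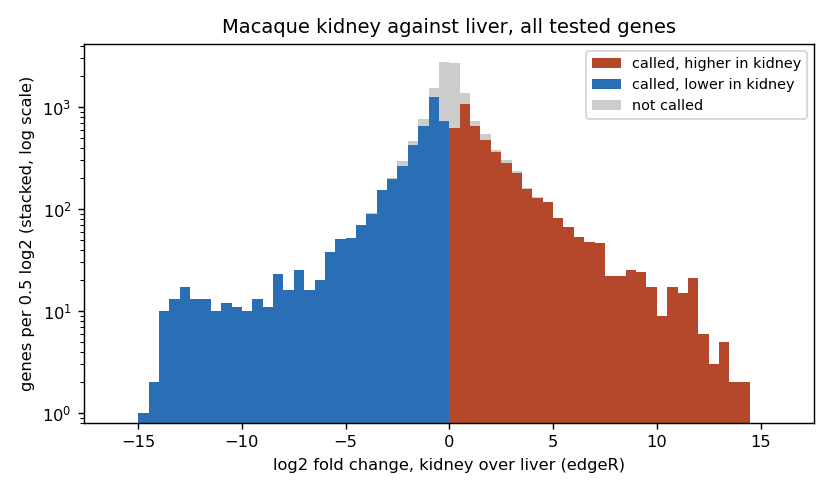
Number of genes (log scale, stacked) in steps of 0.5 log2 fold change, kidney over liver, for the 13927 tested genes; red bars are called higher in kidney, blue bars called lower in kidney and grey bars not called. Genes at 16-fold or more, past 4 on the axis, number 729 on the kidney side and 447 on the liver side, and the uncalled genes lie mostly near 0.

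The spread between animals did not reach across the organs for most called genes. On TMM-scaled CPM, all 5 kidneys lay above all 6 livers for 3230 genes (23.2% of those tested) and below all 6 livers for 2666 (19.1%). Of the genes called at 16-fold or more, 683 of 729 higher ones and 422 of 447 lower ones showed no overlap between kidneys and livers. In contrast, 2903 of the 8788 called genes overlapped in at least 1 library. In another 11 genes the groups did not overlap and the test was not passed.

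Abundant genes were measured more precisely, and their differences ran the other way. Among the 1715 genes at 100 CPM or more (the average of both organ means, TMM-scaled), 372 were higher and 915 lower in kidney, and the median standard error of the log2 fold change was 0.15. Among 7216 genes from 10 to 100 CPM, 2265 were higher and 2381 lower, again with a median standard error of 0.15. Among 3429 genes from 1 to 10 CPM, 1431 were higher and 752 lower, with a median standard error of 0.32. Below 1 CPM, 489 of 1567 genes were higher and 183 lower, with a median standard error of 0.71. On this scaling the liver side held the larger number of abundant differing genes and the kidney side the larger number of scarce ones. A gene enters a bin largely through the organ where it is higher, and TMM scaling raises liver values before binning. The filter on low genes used unscaled libraries, so a scarce gene high in liver needed a higher scaled level to be tested. The part of scaling, binning and filter in this split was not tested. The scarce genes called were also those with large fitted changes: 90% of the called genes below 1 CPM were past a log2 size of 1.45, against 0.37 at 100 CPM or more.

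Among single genes the most extreme were either near or at 0 in the other organ. ENSMUSG00000031766 had 942, 670.2, 1045, 894 and 871 CPM in kidneys 1, 2, 3, 5 and 6, against 0 CPM in livers 1 to 5 and 0.0870 CPM in liver 6. The kidneys lay within a narrow range, and the whole liver signal was 2 counts, as from 1 read pair, since low counts in these libraries are nearly always even. Its mean was 885 CPM ± 137 in kidney (SD, n = 5), which on TMM-scaled CPM is 26983 times the liver level, with 4843 and 1065750 as the 95% counting limits (edgeR adjusted p = 5.11e-14). Without liver replicate 6, which held both counts, the fitted log2 fold change was 16.84, against 14.41 with it. With no liver count left, the size of 16.84 depends on the constant that edgeR adds to counts.

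ENSMUSG00000032327 had 55.3, 118, 204, 279 and 158 CPM in kidneys 1, 2, 3, 5 and 6, against 0 CPM in all 6 livers. The kidneys ranged widely, with kidney 1 the lowest and kidney 5 the highest, and yet no liver reached a single count. Kidney was at least 1643-fold higher, taking 3 read pairs over the 6 livers as the limit of what could have been missed (edgeR adjusted p = 6.61e-08).

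On the liver side, ENSMUSG00000040017 had 0.107 and 0.172 CPM in kidneys 1 and 2 and 0 CPM in kidneys 3, 5 and 6, against 548, 783, 422, 534, 295 and 990 CPM in livers 1 to 6. The livers differed among themselves, with liver 5 lowest and liver 6 highest, and no kidney came near them. On TMM-scaled CPM the liver level was 22465 times that of kidney, with 7687 and 108936 as the 95% counting limits (edgeR adjusted p = 3.12e-12). The fitted log2 fold change, kidney over liver, was -14.51, and -15.36 without kidney replicate 2.

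ENSMUSG00000090306 had no count in any of the 5 kidneys, against 72.6, 62.1, 60.8, 94.9, 79.6 and 82.3 CPM in livers 1 to 6. The livers were close to each other, at 75.4 CPM ± 12.98 (SD, n = 6). Kidney was at least 1185-fold lower (edgeR adjusted p = 3.98e-12).

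The same 4 genes were scarce in macaque cerebellum. ENSMUSG00000031766 averaged 1.28 CPM ± 0.583 there and ENSMUSG00000032327 averaged 0.782 CPM ± 0.665 (SD, n = 6). ENSMUSG00000040017 averaged 0.573 CPM ± 0.376 and ENSMUSG00000090306 averaged 0.0582 CPM ± 0.0639 (SD, n = 6). Each of the 4 thus averaged under 2 CPM in cerebellum, as it did in either kidney or liver.

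**Figure D3:**
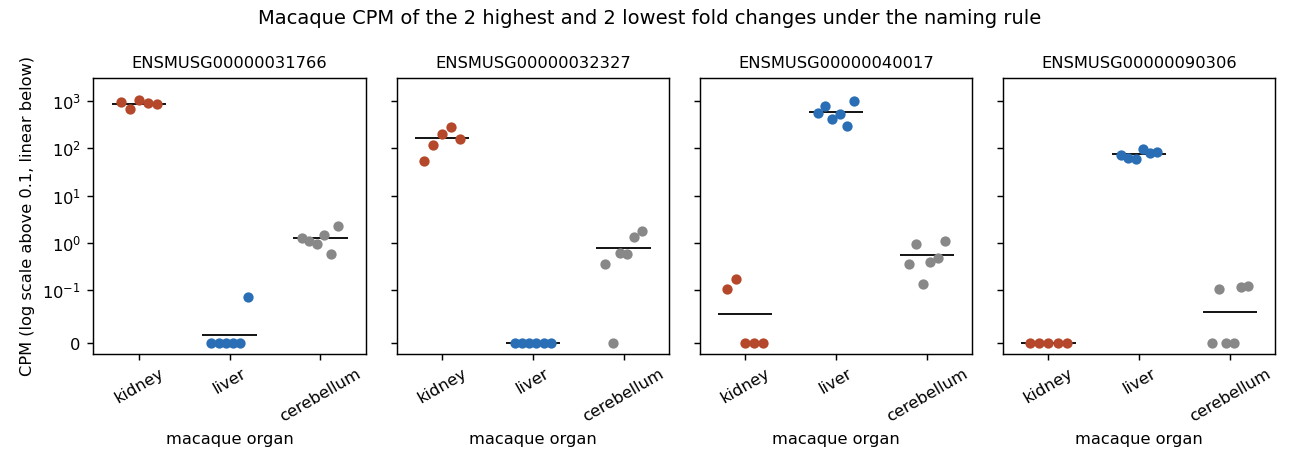
CPM of 4 genes in each macaque kidney, liver and cerebellum library (points; bars mark the mean), on an axis that is logarithmic above 0.1 CPM and linear below it. ENSMUSG00000031766 and ENSMUSG00000032327 have their points at 55.3 CPM or more in kidney and at or next to 0 in liver, and ENSMUSG00000040017 and ENSMUSG00000090306 show the opposite, with 60.8 CPM or more in every liver.

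These 4 genes kept the same higher organ outside macaque. In baboon, ENSMUSG00000031766 averaged 373 CPM ± 199 in kidney against 0.181 CPM ± 0.125 in liver, and ENSMUSG00000032327 averaged 124 CPM ± 71.2 in kidney against 0.0131 CPM ± 0.0320 in liver (SD, n = 6 each). ENSMUSG00000040017 averaged 0.143 CPM ± 0.145 in baboon kidney against 327 CPM ± 384 in baboon liver (SD, n = 6 each), where single livers ran between 53.4 and 1068 CPM. ENSMUSG00000090306 averaged 3.55 CPM ± 4.33 in baboon kidney against 35.8 CPM ± 5.48 in baboon liver (SD, n = 6 each). In the single bear kidney and liver, which have no replicates, ENSMUSG00000031766 had 262 CPM in kidney with liver at 0, and ENSMUSG00000032327 had 225 CPM in kidney against 0.535 CPM in liver. In the same 2 libraries ENSMUSG00000040017 had 0.688 CPM in kidney against 17.3 CPM in liver, and ENSMUSG00000090306 was at 0 in kidney with 34.5 CPM in liver.

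The genes counted in every kidney but in no liver outnumbered those counted in every liver but in no kidney, at each minimum level used. Of the genes at 1 CPM or more in every macaque kidney, 66 were without a count in the livers. Of those at 1 CPM or more in every macaque liver, 14 were without a count in the kidneys. With a minimum of 10 CPM the numbers were 26 and 4, and with 20 CPM they were 12 and 2. With the minimum of 1 set on TMM-scaled CPM they were 60 and 15. How many genes reached each minimum in every kidney or in every liver is not given, so these numbers are not shares. The livers held more counts per library and were 1 library more than the kidneys, but the total count times the TMM factor, a measure of how deeply most genes were sampled, was 21357055 to 28309413 in kidney and 11890734 to 14593247 in liver. The part of depth in these numbers was not tested.

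Some of these genes were counted in cerebellum. Of the 66 kidney genes without a liver count, 11 also had no count in any cerebellum and 28 averaged at least 1 CPM there. Of the 14 liver genes without a kidney count, 6 had no count in cerebellum and 3 averaged at least 1 CPM there. The shares of all genes at such cerebellum levels are not given. Whether these genes are unusual in cerebellum can thus not be told from the numbers.

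Most of these genes had the same higher organ in baboon. Of the 66 kidney genes, 65 were counted in baboon kidney or liver, and 60 had every baboon kidney above every baboon liver on TMM-scaled CPM, as had 22% of all genes counted in these baboon organs. No baboon liver held a count for 26 of the 66, against 4.48% of all genes counted. Of the 14 liver genes, all 14 were counted in baboon, and 12 had every baboon kidney below every baboon liver, as had 18.9% of all genes counted. No baboon kidney held a count for 8 of the 14, against 1.55% of all genes counted. Without the TMM factors the shares of all genes were 63.2% with kidney above and 4.8% with kidney below, and the numbers of these genes were 62 and 12. In bear, on CPM without such factors, 49 of the 56 kidney genes counted were higher in its kidney, beside 59.8% of all genes counted, and 11 of the 11 liver genes counted were lower in its kidney, beside 40.2%.

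Measured levels varied more among the livers than among the kidneys. Over 8944 genes of at least 5 TMM-scaled CPM in both organs, the standard deviation of log2(TMM-scaled CPM + 1) had a median of 0.17 among the 5 kidneys and 0.28 among the 6 livers. It was larger in kidney for 1802 of these genes and larger in liver for 7142 (79.9%). With the 5 same-numbered livers in place of all 6, the medians were 0.17 and 0.29. The 90th percentile was 0.38 in kidney and 0.59 in liver. No test was made of this difference, since genes are not independent. The total count times the TMM factor was 11890734 to 14593247 in liver and 21357055 to 28309413 in kidney. Counting error at a given scaled level was therefore larger in liver, and its part in the spread was not tested.

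A standard deviation over 1 was found for 64 of these genes in kidney (0.716%) and for 176 in liver (1.97%). The groups had 14 genes in common, which is 21.9% of the kidney group, beside the 1.97% of all genes that varied this widely in liver, and 7.95% of the liver group, beside the 0.716% in kidney. Genes are not independent, and the overlap was not tested. The library farthest from the median was kidney 1 for 24 of the 64 kidney genes, and kidneys 2, 3, 5 and 6 for 11, 14, 7 and 8. Among the 176 liver genes it was liver 2 for 64, liver 1 for 35, and livers 3, 4, 5 and 6 for 27, 15, 12 and 23. The widely varying genes were therefore not all set by a single library in either organ.

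Kidney and liver of the same number deviated from their organ means together. Over 11172 genes, these deviations correlated at 0.29, 0.24, 0.31, 0.26 and 0.22 for numbers 1, 2, 3, 5 and 6. The 20 combinations of different numbers lay between -0.19 and 0.13, with a median of -0.09. Deviations from a mean cancel over its libraries, so positive same-numbered values pull the other combinations below 0. The negative median is therefore no result of its own. The 5 same-numbered values were thus the 5 highest of the 25. Kidney and cerebellum of the same number correlated at 0.14 to 0.17. Liver and cerebellum of the same number correlated less, at 0.059 to 0.11, with 3 of the 5 values under 0.1, and overlapped the different numbers, which reached 0.071. Genes are not independent, and these values are a description without a test. Adding the replicate number to the fit called 8864 genes for kidney against liver, close to the 8788 without it.

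**Figure D4:**
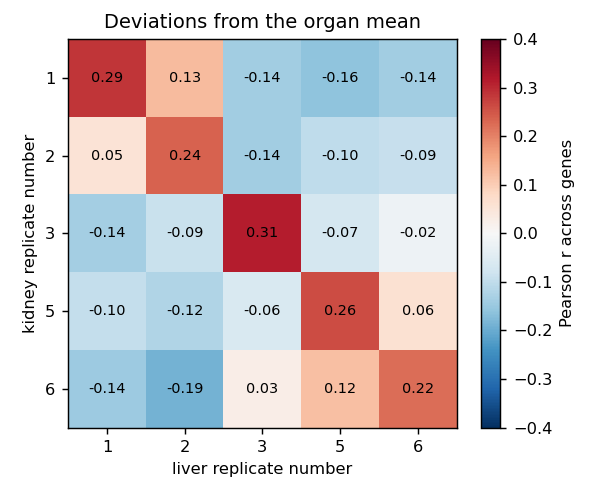
Pearson correlation across 11172 genes between the deviation of each macaque kidney (rows, by replicate number) and of each macaque liver (columns) from its organ's mean; red is positive and blue negative. The 5 cells on the diagonal, kidney and liver of the same number, run between 0.22 and 0.31, and the other cells reach at most 0.13.

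The larger differences between kidney and liver in baboon, whose libraries share none with macaque, had medians of similar size in macaque. Of the 13560 genes tested in both species, 33.02% were higher in macaque kidney, 30.7% lower and 36.3% not called. Among the 677 genes fitted at 16-fold or more higher in baboon kidney, the macaque median log2 fold change was 5.32, beside 5.72 in baboon itself, and 617 were higher, 10 lower and 50 not called in macaque kidney. Among the 424 genes at least 16-fold lower in baboon kidney, the macaque median was -5.99, beside -6.37 in baboon, and 4 were higher, 398 lower and 22 not called. Single genes spread widely around these medians. The macaque 10th and 90th percentiles were 2.02 and 10.6 in the group of 677 genes. In the group of 424 genes they were -12.5 and -2.71. The genes of smaller change in baboon followed more loosely. The 8232 genes under 2-fold in baboon were the largest group, with 1953 higher, 2182 lower and 4097 not called in macaque kidney and a median of -0.02. Of 2362 genes from 2-fold to 16-fold higher in baboon kidney, 1858 were higher, 42 lower and 462 not called in macaque kidney, with a median log2 fold change of 1.68. Of 1865 genes from 2-fold to 16-fold lower, 45 were higher, 1534 lower and 286 not called, with a median of -1.54.

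**Figure D5:**
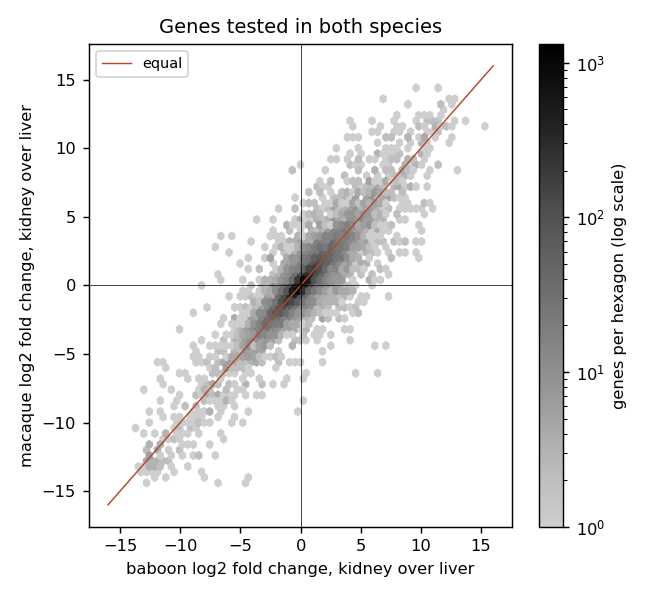
Log2 fold change of kidney over liver in macaque (vertical axis) and in baboon (horizontal axis) for the 13560 genes tested in both species, as genes per hexagon (darker is more, log scale); the red line marks equal values. Most genes lie along the line, and those 16-fold higher in baboon kidney have a macaque median of 5.32.

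A smaller number of genes took opposite directions. Among 7121 genes called in both species, 155 were opposite, 81 of them higher and 74 lower in macaque kidney. In 69 of these the change was at least 2-fold in both species, 34 higher and 35 lower in macaque kidney.

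The difference between the species was then tested itself, as the macaque kidney to liver log2 fold change minus that of baboon, over 23 libraries. Of 13600 genes, 1361 (10%) passed (edgeR quasi-likelihood test, adjusted p under 0.05), 653 (4.8%) above 0 and 708 (5.21%) below 0. Of the 1361 genes, 961 (7.07% of those tested) differed at least 2-fold. The way in which macaque and baboon reads were given mouse IDs is unknown here, and a difference in gene models cannot be told apart from one in expression. Among the 723 of these genes that averaged at least 20 CPM in an organ of each species, 80 averaged under 1 CPM in at least 1 of the 4 groups. The same share among the genes that did not pass is not given, so the 80 cannot be read as a trait of the differing genes.

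ENSMUSG00000031645 had the most negative value, -9.61 ± 0.495 (SE, edgeR adjusted p = 2.02e-11). It had 0.0951 CPM in macaque kidney 5 and 0 CPM in the other 4 kidneys, against 223, 149.8, 195, 203, 195 and 209.5 CPM in macaque livers 1 to 6. In baboon it had 19.1, 13.04, 10.5, 15.5, 14.0 and 18.7 CPM in kidneys 1 to 6, against 108, 121, 132, 157, 72.1 and 88.4 CPM in livers 1 to 6. The gene was lower in kidney in both species, and every baboon kidney held more of it than any macaque kidney. Without macaque kidney replicate 5, which held the only 2 kidney counts, the value was -11.32. With no macaque kidney count left, the size of -11.32 depends on the constant that edgeR adds to counts.

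ENSMUSG00000090306, described above, had nearly the same value, -9.61 ± 1.45 (SE, edgeR adjusted p = 0.000264). It had no count in any macaque kidney, against 11.99, 2.03, 0.122, 1.88, 1.24 and 4.06 CPM in baboon kidneys 1 to 6. Its value was -8.60 without baboon kidney replicate 1, the highest of these. Because a group has no count, the size of this value depends on the constant that edgeR adds to counts and is no bound, and the same holds for the next 2 genes.

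On the other side, ENSMUSG00000022790 had 13.4, 21.5, 38.3, 52.6 and 33.7 CPM in macaque kidneys 1, 2, 3, 5 and 6, against no count in any macaque liver. In baboon it had 33.3, 26.4, 22.8, 21.7, 60.2 and 24.6 CPM in kidneys 1 to 6, against 0.157, 0.0830, 0.233, 2.05, 0.483 and 0.556 CPM in livers 1 to 6. The kidneys of the species overlapped. The livers did not, but they were apart only near the counting floor. Baboon liver 2, the lowest, held 2 counts and baboon liver 4, the highest, held 54. Macaque kidney was at least 322-fold higher than macaque liver (edgeR adjusted p = 1.04e-08). The species difference was 7.46 ± 1.61 (SE, edgeR adjusted p = 0.00605), it was 6.54 without baboon liver replicate 4, and with the replicate number in the fit the adjusted p was 0.0541. This gene also averaged 33.4 CPM ± 9.76 in macaque cerebellum (SD, n = 6), about as much as in macaque kidney.

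ENSMUSG00000029660 had 16.9, 22.5, 27.7, 22.8 and 25.4 CPM in macaque kidneys 1, 2, 3, 5 and 6, against no count in any macaque liver. In baboon it had 93.2, 70.8, 53.3, 56.0, 101 and 99.0 CPM in kidneys 1 to 6, against 2.43, 2.08, 0.389, 0.455, 0.242 and 4.13 CPM in livers 1 to 6. Every macaque kidney lay below every baboon kidney. Macaque kidney was at least 235-fold higher than macaque liver (edgeR adjusted p = 1.07e-06). The species difference was 7.12 ± 1.65 (SE, edgeR adjusted p = 0.0101), with an adjusted p of 0.0551 when the replicate number was in the fit.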

How the data were processed

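The authors deposited a single table of raw counts per gene and library, with no normalization; STAR and featureCounts are named in the submitters' processing notes, without versions. Builds, strand setting and the assignment of reads to mouse IDs are not stated. Each of the 48 columns has a name that fits 1 sample. Low counts, from 1 to 20, were even in 97.7% to 99.4% of cases per kidney and liver library, so 2 deposited counts were taken as 1 read pair for bounds and intervals; floors are 3 read pairs (6 counts) over a group and cover counting error only.

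Kidney and liver were compared with edgeR 4.0.16 in R 4.3.3 (TMM, filterByExpr, quasi-likelihood F test, two-sided) fitted to all 17 macaque libraries, and the species difference with the 23 kidney and liver libraries of macaque and baboon. Baboon fold changes came from a fit of the 18 baboon libraries. Benjamini-Hochberg adjustment ran over all genes tested. The procedure was also run on simulated data in which few genes differed between kidney and liver. Such data do not test the scaling where most genes differ, as here. Alternatives were DESeq2 1.42.0, other scalings, filters and library sets, halved counts and a replicate block. The labels do not say that same-numbered organs come from the same animal. The main fits left the replicate number out, and the replicate block was an alternative to them. Every same-numbered kidney and liver correlated above 0.1 (0.22 to 0.31 in macaque, 0.12 to 0.38 in baboon). So did 2 of the 20 macaque combinations of different numbers, and 0 of the 30 in baboon. P-values measure the spread between these samples.

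Named IDs are the first 2 per direction by fold change among called genes of at least 20 CPM on average in the higher organ (for the species difference, in an organ of each species) and, for kidney against liver, no overlap of groups. The gene lists written as symbols, and the parts of the naming rule that use them, could not be applied because no ID could be paired with a symbol. The genes most variable within an organ are given as counts. Members, lists and tests were chosen with earlier results of these data known; the group definitions from baboon levels, the one-organ counts and the spread comparison were chosen after the data were seen, as were the shares of all genes beside them.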

Additional observations from a re-analysis of the deposited data

Results flagged for a closer look

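Dixon's test was run on the CPM of the 7 named genes in the kidneys, livers and cerebella of macaque and the kidneys and livers of baboon, and on the total counts and the sums of both baboon-defined gene groups in each macaque organ. Of these 44 groups of 5 or 6 libraries 8 held a library that stood apart. The usual chance rate of about 1 in 20 groups does not apply to them. A lone library with a count among libraries at 0 always stands apart, and a group without counts never can. ENSMUSG00000031766 had 0.0870 CPM in macaque liver replicate 6 and 0 in the other 5 livers, and ENSMUSG00000031645 had 0.0951 CPM in macaque kidney replicate 5 and 0 in the other 4 kidneys; each is 2 counts. ENSMUSG00000032327 had 0.0784 CPM in baboon liver replicate 1 and 0 in the other 5 livers. ENSMUSG00000040017 had 1068 CPM in baboon liver replicate 2, with 336 CPM the next highest. ENSMUSG00000029660 had 5.94 CPM in macaque cerebellum replicate 6, with 1.21 CPM the next highest. ENSMUSG00000090306 had 11.99 CPM in baboon kidney replicate 1, with 4.06 CPM the next highest. ENSMUSG00000022790 had 60.2 CPM in baboon kidney replicate 5, with 33.3 CPM the next highest, and 2.05 CPM in baboon liver replicate 4, with 0.556 CPM the next highest.

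In the fit without the replicate number, the kidney to liver difference itself differed between macaque and baboon for the 4 genes named for it, by 7.46 for ENSMUSG00000022790, 7.12 for ENSMUSG00000029660, -9.61 for ENSMUSG00000031645 and -9.61 for ENSMUSG00000090306 (log2, macaque minus baboon). With the replicate number in the fit, ENSMUSG00000022790 and ENSMUSG00000029660 did not pass (edgeR adjusted p = 0.0541 and 0.0551). These sizes, other than that of ENSMUSG00000031645, depend on the constant that edgeR adds to counts, since a macaque group held no count. That of ENSMUSG00000031645 rested on 2 counts in macaque kidney.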

How the results depend on the processing

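Counts of called genes stayed within 1.5 times under every alternative run. For kidney against liver (8788 genes) they were 7647 to 9077 over 9 settings and 8368 to 8729 with each kidney or liver left out in turn; 7842 were called with only the 11 kidney and liver libraries. With upper-quartile factors the median over all genes was a log2 fold change of 0.14 in place of 0.02, and the split was 5176 higher and 3617 lower. For the species difference (1361 genes) they were 1303 to 1918, the highest with DESeq2, and 1146 to 1423 with a library left out. The replicate block called 8864 and 1391 genes, of which 8480 and 1078 were shared with the fits without it. It left ENSMUSG00000022790 at 7.18 and ENSMUSG00000029660 at 6.80 short of the threshold and changed no other named call. The count per gene list was not run, since no ID had a symbol. Of genes below 1 CPM, 42.9% were called, against 75.04% at 100 CPM or more, and scarce genes with smaller differences were not detectable at this depth.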
